A study of Mus musculus with 3 samples.

Results

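The 36 genes described here encode the transporters and enzymes that carry glucose to lactate, and the subunits, regulators and some targets of hypoxia-inducible factor (HIF). They were chosen by gene symbol, and all 36 were found among the 55536 gene identifiers of the deposited tables. Where a symbol had several identifiers, which was the case for Aldoa, that of highest mean expected count stood for the gene. RNA bound to chromatin had been sequenced, after depletion of ribosomal RNA, from bone-marrow-derived macrophages of C57BL/6J mice. These are primary cells grown from marrow precursors. Lipid A, the part of bacterial lipopolysaccharide that TLR4 recognises, was given at 100 ng/ml for 12 h, removed for 12 h, and given again at 100 ng/ml for 10 min. All 3 libraries were of this 1 condition, so no comparison with untreated or singly stimulated cells was made. The labels number them as biological replicates 1, 2 and 3, from separate biosamples that carry the same donor identifier. Sex and age were not collected. Replicate 1 started from 1 µg of RNA, replicate 2 from 250 ng and replicate 3 from 500 ng.

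In glycolysis, cells take up glucose, phosphorylate and split it, and turn the products into pyruvate with a net gain of ATP. Activated macrophages are known for a high rate of this pathway and for turning pyruvate into lactate. HIF is a pair of an oxygen-regulated alpha subunit and the stable subunit ARNT. Prolyl hydroxylases mark the alpha subunit in the presence of oxygen, and the VHL protein then directs it to destruction. When it is not marked, the pair binds short DNA sites near many glycolytic genes and drives their transcription. RNA held on chromatin is largely nascent or not yet released, so levels here are not those of finished messenger RNA in the cell.

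Rounded expected counts on genes summed to 13538605, 19949204 and 18224466 in replicates 1, 2 and 3, so that 3 counts, the upper limit that a count of 0 allows, corresponded to 0.222, 0.150 and 0.165 CPM (counts scaled to library size). These limits cover counting error only. All 8 macrophage markers tested were detected, with a summed level of 729 to 1016 TPM (the deposited length-scaled abundance). Of other cell types, 0 of 8 neutrophil, 0 of 6 fibroblast and 0 of 6 lymphocyte markers were detected. Their summed levels were 0.58 to 0.72, 0.04 to 1.68 and 0.09 to 0.31 TPM. The neutrophil genes S100a8, S100a9, Elane, Ly6g and Ltf, and the lymphocyte genes Cd3e and Ncr1, were listed at 0 in every library. The erythroid list was at 9.49 to 15.3 TPM, of which Alas2 made 9.04 to 13.9, and Hbb-bt and Slc4a1 were listed at 0. In the read-based tables, 1 neutrophil and 1 lymphocyte marker passed the rule: Mpo, at 1.78, 2.23 and 1.68 TPM, and Cd3d, at 15.4, 11.6 and 14.3 TPM, where the gene tables had 0, 0 and 5 counts for Mpo and 0, 1 and 0 for Cd3d. Messages for cytoplasmic ribosomal proteins took 0.113% to 0.133% of counts and mitochondrial genes 0.0387% to 0.0820%. In such bulk samples, fewer cells of a type and less RNA per cell cannot be told apart.

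Most of the genes had RNA on chromatin. At a threshold of 1 TPM in all 3 libraries, 29 of the 36 were detected (80.6%), against 45.6% of 22028 protein-coding genes. At 10 TPM in all libraries the counts were 19 of 36 (52.8%) and 23.2%. Epas1 and Egln3, 2 of the 36, were below 0.1 TPM in every library, against 38.2% of protein-coding genes. Slc2a1, Slc2a3, Slc16a1, Aldoc and Ldhb were neither detected nor below 0.1 TPM throughout. The median log2(TPM + 0.1) over the 36 genes was 3.94, 4.21 and 3.98 in replicates 1, 2 and 3, a mean of 4.04 ± 0.14 (SD, n = 3). Over all protein-coding genes it was −0.43 ± 0.13, and over the protein-coding genes detected by the same rule 3.60 ± 0.11. The genes differed widely among themselves. Hk3 ranked highest and Pkm next in each library, and together they held 42.5% ± 1.49 of the summed TPM of the 36 genes. That order was the same in transcript tables that the authors made straight from the reads, and when TPM was summed over protein-coding transcripts only.

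**Figure D1:**
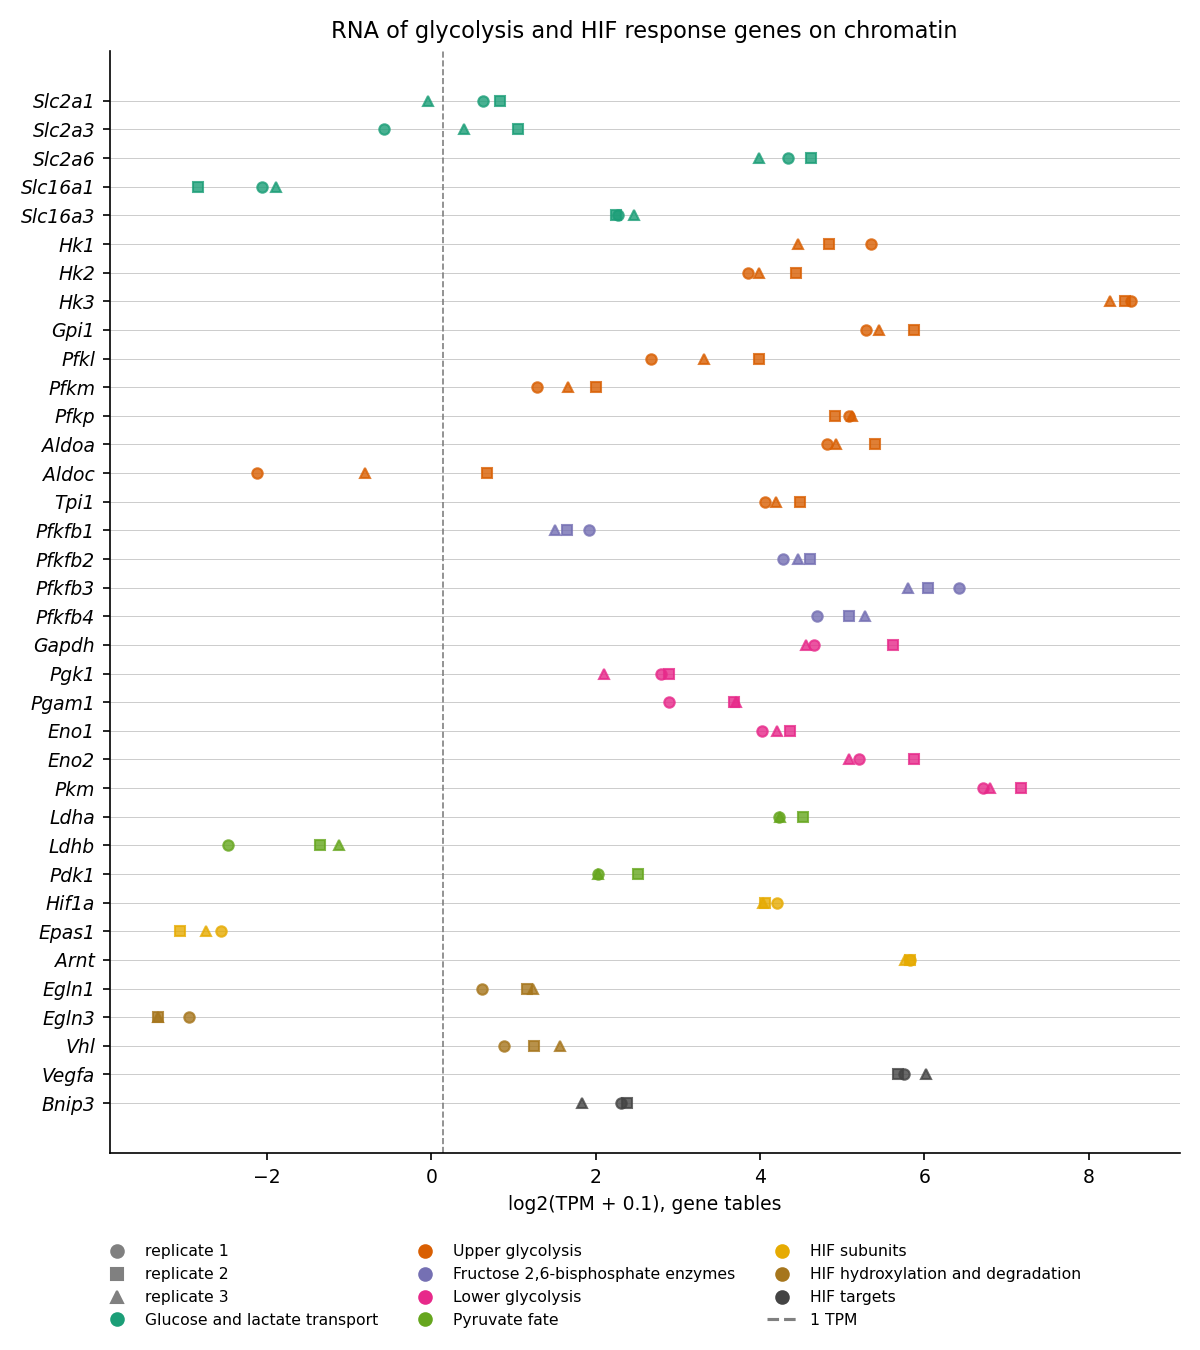
Level of each of the 36 genes as log2(TPM + 0.1) on the x axis, with 1 marker for each of the 3 libraries, colour by role, and a dashed line at 1 TPM. Hk3 stands highest, between 307 and 366 TPM, and Epas1 and Egln3 lie at the left, below 0.1 TPM.

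Promoter windows from RefSeq (build GRCm38.p6, the same assembly as mm10), which run from 250 bases before a gene's start to 50 after it, were searched for the core of the HIF site. The letters searched were ACGTG and GCGTG on both strands, which may overlap each other and, within CACGTG, match on either strand. Of the 34 genes with a window, 30 (88.2%) held a match in at least 1 of theirs, against 52.3% of 17492 protein-coding and 46.7% of all 27025 genes. By window the shares were 75.5% of 53, 49.3% of 21263 and 43.8% of 32851. With ACGTG alone, 21 of the 34 genes (61.8%) and 23.2% of protein-coding genes held a match. Both motifs contain a CG pair, and the windows differed in composition: the median number of CG pairs was 18 in those of the 34 genes, 13 in protein-coding and 7 in all windows. The part of composition in the shares was not tested. Vhl, Eno2, Tpi1 and Gpi1 had no match in their windows. No window was found for Slc2a3 and Epas1. A match of letters is not evidence of binding, and no binding was measured.

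Glucose enters the cell through transporters of the SLC2A family, and lactate leaves it through monocarboxylate transporters. Of these 5 genes, Slc2a6 and Slc16a3 were detected. Slc2a6 (ENSMUSG00000036067.12, mm10 chromosome 2, 27021363 to 27027998), which encodes a transporter found on lysosomes and known to be induced in activated macrophages, was at 20.2, 24.4 and 15.7 TPM in replicates 1, 2 and 3. Slc2a1, the gene of the widely expressed plasma membrane transporter GLUT1, was at 1.44, 1.69 and 0.87 TPM. Slc2a3, the gene of the high-affinity transporter GLUT3, was at 0.57, 1.98 and 1.22 TPM. Slc2a6 was above both others in every library, with no overlap, while Slc2a1 and Slc2a3 changed order between libraries. The difference of Slc2a1 from Slc2a6 was −3.84 ± 0.16 on the log2(TPM + 0.1) scale (SD, n = 3), a 14.3-fold difference. Protein-coding transcripts held 24.6% ± 3.08 of the transcript TPM of Slc2a6, and the rest lay in transcripts annotated as processed, without a coding frame. Counting protein-coding transcripts alone, the difference was −1.92 ± 0.19. In the read-based tables, protein-coding transcripts held 44.3% of Slc2a6 TPM, and the difference over all transcripts was −3.15 ± 0.25. The 250 bases before the start of these genes are shown as the contrast between the glucose transporter genes among the 36 that have a window. Outside the 36, Slc2a9 was at 22.9, 21.9 and 20.1 TPM, which overlaps with Slc2a6, and Slc2a8 at 1.85, 4.65 and 3.81, above Slc2a1 in each library. These genes were named after their values were seen. Letters in capitals match the core HIF motif, and Slc2a6 held 4 matches and Slc2a1 held 2.

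Slc2a6 (chr2:27027999-27028248, minus strand): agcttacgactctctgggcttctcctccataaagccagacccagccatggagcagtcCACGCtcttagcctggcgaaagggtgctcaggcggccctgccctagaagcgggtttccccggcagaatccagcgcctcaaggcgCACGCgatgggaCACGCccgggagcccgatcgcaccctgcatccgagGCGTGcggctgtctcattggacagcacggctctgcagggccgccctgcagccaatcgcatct

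Slc2a1 (chr4:119108495-119108744, plus strand): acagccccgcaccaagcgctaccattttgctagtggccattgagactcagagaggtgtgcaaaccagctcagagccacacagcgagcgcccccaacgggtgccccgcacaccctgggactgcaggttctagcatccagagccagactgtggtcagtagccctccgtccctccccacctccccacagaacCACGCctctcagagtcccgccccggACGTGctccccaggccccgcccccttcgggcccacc

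Slc16a3, which encodes the lactate exporter MCT4, was at 4.71, 4.64 and 5.41 TPM. Slc16a1, the gene of MCT1, which carries lactate in either direction, was at 0.14, 0.04 and 0.17 TPM, on 8, 3 and 12 counts. Slc16a3 was higher in each library, and its share of the pair's TPM was 97.7% ± 1.22. It was not the highest monocarboxylate transporter gene measured: Slc16a7, the gene of MCT2 and not among the 36, was at 16.5, 24.3 and 16.9 TPM, above Slc16a3 in each library, and was named after its value was seen.

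Of the 10 genes of upper glycolysis, which takes glucose to triose phosphates, 9 were detected and Aldoc was the exception. Hk3 (ENSMUSG00000025877.14, mm10 chromosome 13, 55005985 to 55021385), one of the hexokinases that phosphorylate glucose, stood at 365.5, 347.6 and 307.1 TPM, on 9381, 12718 and 10656 counts. Its mean of 340.0 ± 29.9 TPM placed it 68th among protein-coding genes. Hk1, a hexokinase that binds mitochondria and is expressed in most tissues, was at 40.6, 28.6 and 21.9 TPM. Hk2, also mitochondrial and a textbook HIF target, was at 14.4, 21.5 and 15.8 TPM. Hk3 therefore made 86.9%, 87.4% and 89.1% of hexokinase TPM in the 3 libraries, and its levels did not overlap with those of the other genes. Hk3 exceeded Hk2 by 4.31 ± 0.33 and Hk1 by 3.52 ± 0.32 on the log2(TPM + 0.1) scale. Hk1 exceeded Hk2 by a smaller margin, since the difference of Hk2 from Hk1 was −0.79 ± 0.61, negative in 3 of 3 libraries. Of the transcript TPM of Hk3, 50.7% ± 5.19 lay in protein-coding transcripts, 30.3% ± 5.76 in processed ones and 19.0% ± 0.62 in transcripts annotated as subject to nonsense-mediated decay. These shares depend on the unit and on the quantification. By expected counts, coding transcripts of Hk3 held 68.4% and processed ones 5.59% on average. In the read-based tables, coding transcripts held 39.6% of Hk3 TPM and processed ones 53.2%, so that their order turned. The antisense gene Unc5a overlaps Hk3 and had a mean of 986 counts, against 10918 for Hk3. The promoters of the highest and the lowest hexokinase gene are shown as the contrast within the family. In capitals, Hk3 held 1 match to the core motif and Hk2 held 2.

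Hk3 (chr13:55021386-55021635, minus strand): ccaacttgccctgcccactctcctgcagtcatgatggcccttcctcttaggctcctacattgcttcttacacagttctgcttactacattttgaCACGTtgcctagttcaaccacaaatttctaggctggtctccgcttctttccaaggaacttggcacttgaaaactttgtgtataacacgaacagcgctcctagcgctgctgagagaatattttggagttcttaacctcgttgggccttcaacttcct

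Hk2 (chr6:82774455-82774704, minus strand): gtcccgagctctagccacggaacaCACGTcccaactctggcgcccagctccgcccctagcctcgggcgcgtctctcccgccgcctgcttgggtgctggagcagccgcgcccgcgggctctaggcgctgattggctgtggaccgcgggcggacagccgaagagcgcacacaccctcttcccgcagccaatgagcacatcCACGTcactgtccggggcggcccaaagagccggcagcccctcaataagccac

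The next enzymes isomerise, phosphorylate and split the sugar. Gpi1, glucose-6-phosphate isomerase, was at 38.9, 58.5 and 43.4 TPM. Among genes of phosphofructokinase, the committed step of the pathway, Pfkp (platelet type) was at 33.9, 30.1 and 34.5 TPM. Pfkl (liver type) was at 6.27, 15.8 and 9.86 TPM, and Pfkm (muscle type) at 2.33, 3.91 and 3.07. The order Pfkp, Pfkl, Pfkm was the same in each library, and the levels did not overlap. It did not hold over coding transcripts in the transcript tables that go with the gene tables. Transcripts annotated with a retained intron made 91.0% ± 2.09 of the TPM of Pfkp, and over coding transcripts alone its share of the family was 29.9% ± 6.11, with 39.1% ± 4.81 for Pfkl and 30.9% ± 1.30 for Pfkm. The difference of Pfkl from Pfkp thus went from −1.71 ± 0.75 to 0.39 ± 0.47, positive in 2 of 3 libraries. In the read-based tables, coding transcripts made 18.9% of Pfkp, 31.5% of Pfkl and 100% of Pfkm TPM on average. The mean levels there were 43.0, 13.2 and 6.69 TPM, so that coding Pfkp stayed above coding Pfkl. By these means coding Pfkm lay between them, above coding Pfkl. The turn of Pfkl and Pfkp over coding transcripts, and the order of Pfkl and Pfkm there, thus depend on the quantification. Senp1, antisense to Pfkm, had a mean of 1611 counts against 125 for Pfkm, and since the treatment of strand is not given, reads of such neighbours may be mixed.

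Aldoa, the aldolase of muscle and most other tissues, was at 27.9, 42.2 and 30.2 TPM and made 98.2% ± 1.505 of aldolase TPM. Aldoc, the brain form, was at 0.13, 1.5 and 0.47 TPM, on 4 to 14 counts. Tpi1, which interconverts the triose phosphates, was at 16.6, 22.2 and 18.3 TPM. Replicate 2 was highest in TPM for Hk2, Gpi1, Pfkl, Pfkm, Aldoa, Aldoc and Tpi1, replicate 1 for Hk1 and Hk3, and replicate 3 for Pfkp. The median log2(TPM + 0.1) over detected protein-coding genes was also highest in replicate 2, at 3.72, against 3.52 in replicate 1 and 3.56 in replicate 3.

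The PFKFB enzymes make and remove fructose 2,6-bisphosphate, the strongest activator of phosphofructokinase, and all 4 of their genes were detected. Pfkfb3, the inducible form with the highest kinase activity, was at 85.3, 66.1 and 55.7 TPM. Pfkfb4 was at 25.7, 33.7 and 38.7 TPM, and Pfkfb2 at 19.4, 24.4 and 22.0. Pfkfb1, the liver and muscle form, was at 3.68, 3.03 and 2.73 TPM, and the antisense gene Apex2 beside it had a mean of 996 counts against 52 for Pfkfb1. Pfkfb3 was above Pfkfb4 in every library, but by a margin that differed between them: the difference of Pfkfb4 from Pfkfb3 was −1.07 ± 0.61, which is 2.10-fold. The share of Pfkfb3 in the family was 63.6%, 52.0% and 46.8% in replicates 1, 2 and 3, and that of Pfkfb4 was 19.2%, 26.5% and 32.5%.

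**Figure D2:**
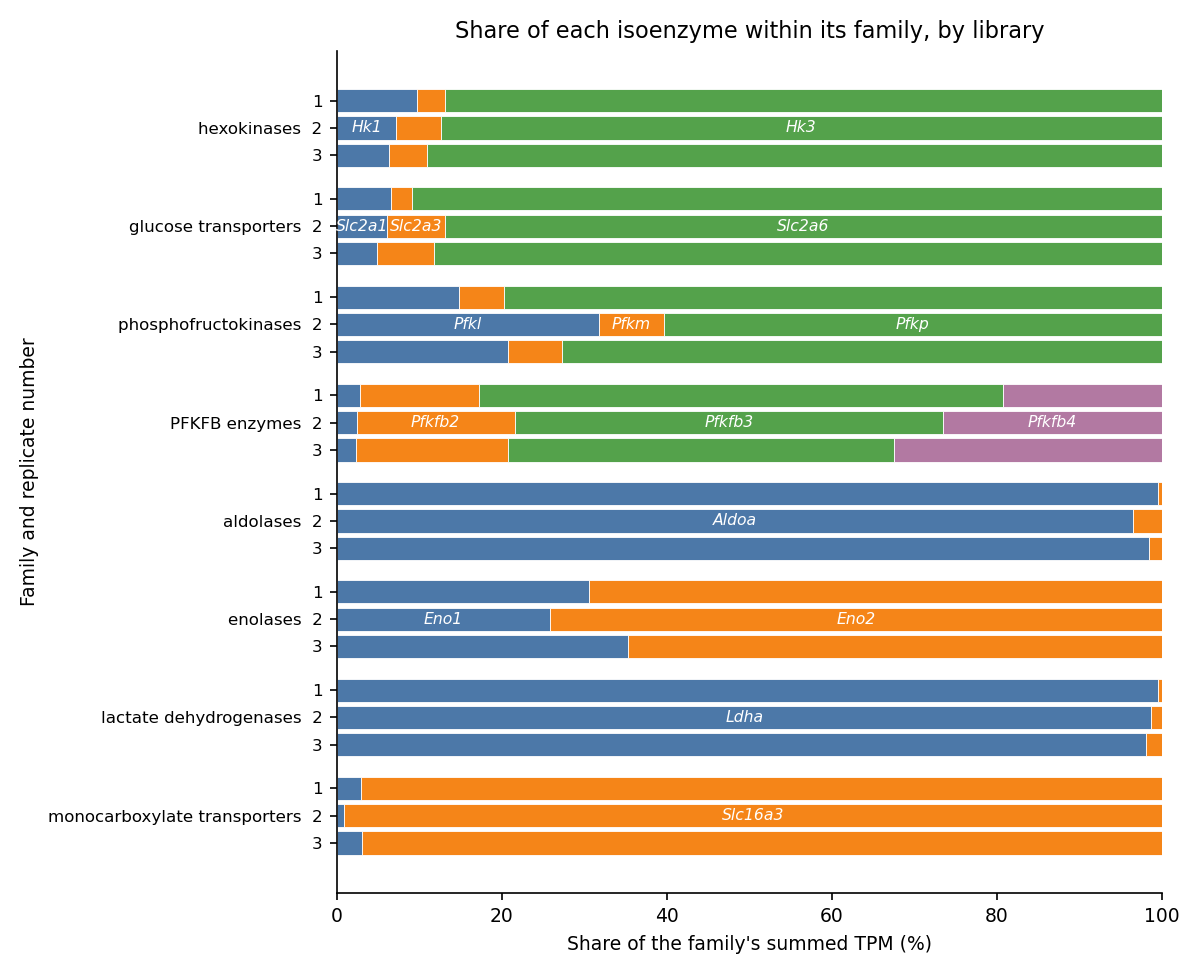
Share of the summed TPM of each gene family (x axis, in percent) held by each gene, with 1 bar for each of the 3 libraries of a family; from the left the genes are Hk1, Hk2, Hk3; Slc2a1, Slc2a3, Slc2a6; Pfkl, Pfkm, Pfkp; Pfkfb1 to Pfkfb4; Aldoa, Aldoc; Eno1, Eno2; Ldha, Ldhb; Slc16a1, Slc16a3. Each bar covers only the listed genes, so it leaves out further members such as Slc16a7 and Slc2a9. Hk3 (87.8%), Aldoa (98.2%), Ldha (98.8%) and Slc16a3 (97.7%) fill most of their bars by mean share.

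All 6 genes of lower glycolysis, which makes pyruvate and ATP, were detected. Gapdh, glyceraldehyde-3-phosphate dehydrogenase, was at 25.0, 48.9 and 23.5 TPM, with replicate 2 above the others. The antisense gene Iffo1, which shares 68 exonic bases with it, had 1902 counts on average against 580 for Gapdh. Pgk1, the first ATP-making enzyme of the pathway, was at 6.85, 7.32 and 4.20 TPM, and Pgam1, phosphoglycerate mutase, at 7.34, 12.7 and 13.0. Pgk1 was the lowest of the 6 in each library. The Pgk1 promoter is shown because it is one of the classical HIF-responsive promoters, and it held 2 matches.

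Pgk1 (chrX:106186850-106187099, plus strand): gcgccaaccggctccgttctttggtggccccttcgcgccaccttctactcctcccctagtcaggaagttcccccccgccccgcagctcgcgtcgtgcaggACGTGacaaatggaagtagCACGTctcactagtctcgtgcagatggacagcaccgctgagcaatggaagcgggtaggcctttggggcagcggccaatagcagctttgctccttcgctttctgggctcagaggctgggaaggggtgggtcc

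Eno2, the enolase best known from neurons, was at 36.7, 58.7 and 33.6 TPM. Eno1, the enolase of most tissues, was at 16.2, 20.4 and 18.4 TPM. Eno2 was higher in each library, with no overlap, and the difference of Eno1 from Eno2 was −1.19 ± 0.32. It was −1.09 ± 0.16 over coding transcripts and −0.68 ± 0.37 in the read-based tables, with the same sign in 3 of 3 libraries under both.

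Pkm (ENSMUSG00000032294.17, mm10 chromosome 9, 59656368 to 59679375), which encodes the pyruvate kinase of the last step, was at 104.9, 143.9 and 111.1 TPM. It is spliced with either of 2 exons of 167 bases: the M1 exon, typical of muscle, or the M2 exon, typical of proliferating and activated cells. The exons differ at 64 positions, which are in capitals in the sequences below (mm10), shown because they are what sets the M1 and M2 transcripts apart.

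M1 exon (chr9:59675029-59675195, plus strand): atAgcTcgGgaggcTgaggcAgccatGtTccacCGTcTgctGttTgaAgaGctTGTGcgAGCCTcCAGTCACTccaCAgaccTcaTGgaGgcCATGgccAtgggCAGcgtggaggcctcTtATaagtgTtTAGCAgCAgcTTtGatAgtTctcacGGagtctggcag

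M2 exon (chr9:59675568-59675734, plus strand): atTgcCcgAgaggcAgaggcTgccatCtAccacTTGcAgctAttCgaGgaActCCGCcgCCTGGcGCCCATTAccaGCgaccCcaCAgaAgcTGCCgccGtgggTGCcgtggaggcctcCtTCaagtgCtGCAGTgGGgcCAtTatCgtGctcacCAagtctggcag

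The only annotated transcript with the M2 exon spliced in, Pkm-201, was at 32.5, 52.8 and 36.8 TPM. The only one with the M1 exon, Pkm-202, was at 15.1, 16.6 and 16.1 TPM. The M2 transcript was above the M1 transcript in every library and made 68.2%, 76.1% and 69.6% of their sum, a mean of 71.3% ± 4.20. The M2 share was 75.1% ± 3.86 by expected counts and 69.2% ± 3.29 in the read-based tables. These values are the authors' quantification of whole transcripts, which differ elsewhere too, not counts of exon junctions. Transcripts classed with neither exon held 52.9% ± 1.53 of Pkm TPM, most of it in the retained-intron transcript Pkm-205 at 34.7% ± 1.51. In the read-based tables such transcripts held 73.5% ± 1.91, of which Pkm-205 made 16.2% ± 0.09 of Pkm TPM and Pkm-208 the most, at 22.5% ± 4.87, against 0.43% ± 0.39 in the other tables. A gene on the same strand, Gm49759, shares 767 exonic bases with Pkm and had a mean of 2017 counts against 3266 for Pkm.

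Pyruvate is reduced to lactate by lactate dehydrogenase or enters mitochondria. Ldha, whose subunit favours lactate formation, was at 18.6, 23.0 and 18.8 TPM. Ldhb, whose subunit favours the reverse reaction, was at 0.08, 0.29 and 0.36 TPM on 1, 5 and 3 counts. Ldha was above Ldhb by 5.98 ± 0.68 on the log2(TPM + 0.1) scale and made 98.8% ± 0.73 of their TPM. Pdk1, a kinase that shuts off pyruvate dehydrogenase and a HIF target, was at 3.98, 5.63 and 3.97 TPM. Of its transcript TPM, 76.5% ± 3.25 lay in processed transcripts. The promoter of Ldha before its upstream start held 5 matches to the core motif. Together with that of Bnip3, also with 5, it held the most in these 250 bases among the genes described, and it is shown for that reason. Of its 5 matches, 4 come from the palindrome CACGTG, which occurs at 2 places.

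Ldha (chr7:46845554-46845803, plus strand): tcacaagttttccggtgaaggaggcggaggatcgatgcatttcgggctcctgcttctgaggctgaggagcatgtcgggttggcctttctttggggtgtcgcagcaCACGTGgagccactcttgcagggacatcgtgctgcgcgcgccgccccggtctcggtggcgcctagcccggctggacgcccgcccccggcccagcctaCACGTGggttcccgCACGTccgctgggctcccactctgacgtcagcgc

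**Figure D3:**
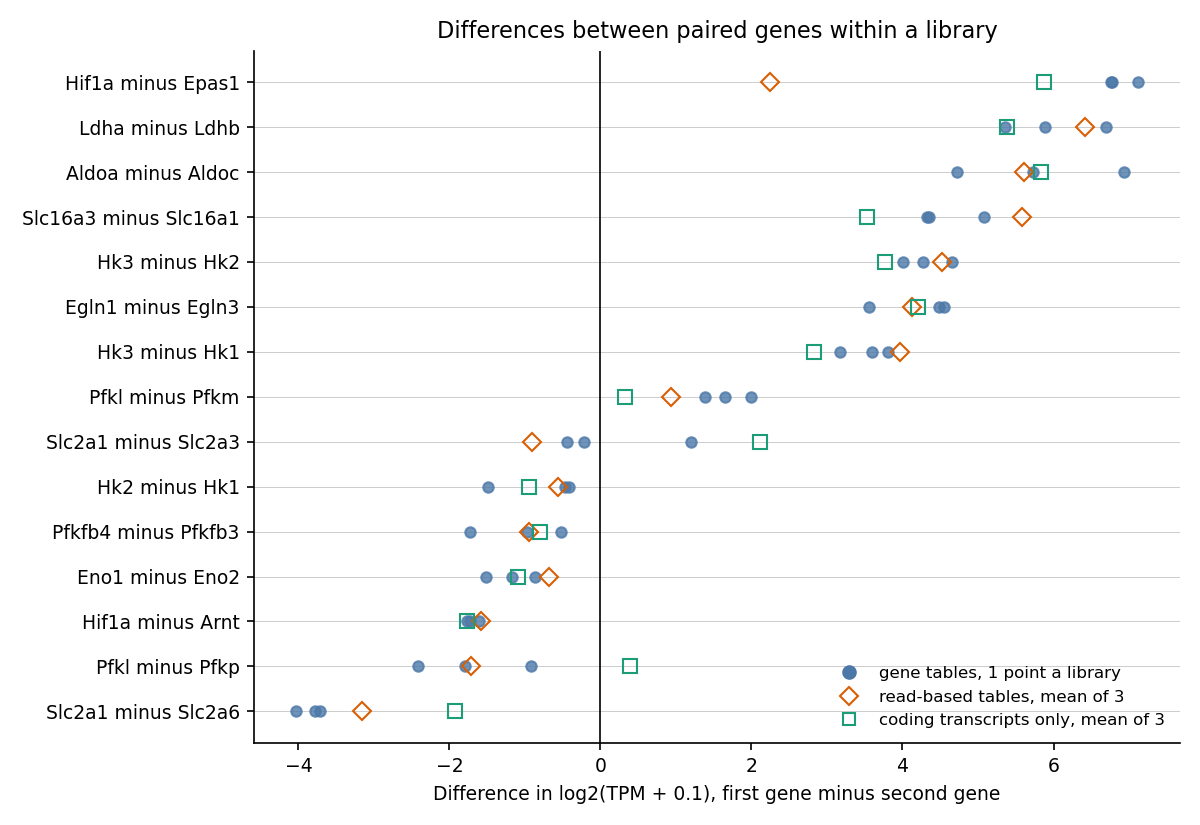
Difference in log2(TPM + 0.1) between the genes of 15 pairs (x axis, first gene minus second), with filled points for the 3 libraries in the gene tables and open symbols for the means in the read-based tables and over coding transcripts. The points of 14 pairs lie on one side of 0, those of Slc2a1 and Slc2a3 on both sides, and the coding-transcript mean of Pfkl minus Pfkp crosses 0.

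In all, 15 pairs of related genes were compared within libraries, and 14 kept the same sign in 3 of 3. The exception was Slc2a1 with Slc2a3, at 0.18 ± 0.89. By the exact two-sided sign-flip test, each of the 14 had p = 0.25, the smallest that 3 libraries allow, and an adjusted p of 0.268 over the 15 pairs (Benjamini-Hochberg). The design cannot reach 0.05, so these differences are described by their size and the spread between libraries.

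Of the HIF subunits, Hif1a (ENSMUSG00000021109.13, mm10 chromosome 12, 73901375 to 73947530), which encodes the alpha subunit best known from activated macrophages, was at 18.4, 16.5 and 16.3 TPM. Arnt, which encodes the shared partner, was at 56.3, 56.5 and 54.2 TPM. Arnt was the higher in each library and Hif1a differed from it by −1.70 ± 0.08, the smallest SD of the 15 pairs. Epas1, the gene of HIF-2 alpha, was at 0.07, 0.02 and 0.05 TPM on 5, 2 and 4 counts. The read-based tables put Epas1 at 4.71, 3.59 and 4.29 TPM, so that its low level depends on the quantification, while Hif1a stayed above it in 3 of 3 libraries, by 2.25 ± 0.14 against 6.88 ± 0.20 in the gene tables. The annotated protein-coding transcripts of Hif1a start at either of 2 sites 6529 bases apart on chromosome 12 (mm10, positions 73901375 and 73907904). Of the TPM of the full-length pair, the transcript from the upstream start, Hif1a-202, held 33.1%, 38.2% and 46.2%, a mean of 39.1% ± 6.60, and that from the downstream start, Hif1a-201, the rest. The read-based tables gave the upstream start 24.3% ± 8.30. The downstream transcript was the higher one in each library by both. These shares leave out Hif1a-203, a shorter coding transcript from the downstream start, at a mean of 2.18 TPM. They also leave out the retained-intron transcript Hif1a-204, at 7.82 TPM.

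Among genes for hydroxylation and degradation of the alpha subunit, Egln1, the main prolyl hydroxylase, was at 1.43, 2.14 and 2.25 TPM. Egln3, an inducible hydroxylase, had 1, 0 and 0 counts, and the counts of 0 allow up to 0.150 and 0.165 CPM in replicates 2 and 3. Vhl, the subunit of the ubiquitin ligase that binds the hydroxylated protein, was at 1.75, 2.28 and 2.86 TPM. The read-based tables gave Vhl 17.5, 9.01 and 11.4 TPM. Egln2, another prolyl hydroxylase, and Hif1an, which hydroxylates an asparagine of the alpha subunit, were higher than Egln1, at 18.1 ± 2.57 and 10.8 ± 1.21 TPM. The levels of Egln2 and Hif1an did not overlap with those of Egln1, and these genes were named after their values were seen.

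Both HIF targets outside glycolysis were detected. Vegfa, which encodes the angiogenic growth factor, was at 53.7, 51.3 and 64.8 TPM, and 49.4% ± 2.84 of this lay in retained-intron transcripts. That share depends on the unit: it was 13.0% by expected counts, with 87.0% in coding transcripts, and 54.7% in the read-based tables. Bnip3, which encodes a mitochondrial protein of mitophagy, was at 4.87, 5.11 and 3.47 TPM. Vegfa was above Bnip3 in each library, with no overlap.

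Chromatin holds RNA that is not fully spliced, and the annotation marks transcripts that retain an intron. Among the 29 detected genes, 22 had such a transcript. Their median retained-intron share of TPM was 49.2%, 50.5% and 47.3% in replicates 1, 2 and 3, a mean of 49.0% ± 1.61. In 6342 detected protein-coding genes with such transcripts it was 45.6% ± 0.71. By expected counts the medians were 28.1% ± 1.97 and 29.2% ± 1.12, and the order of the groups turned, so the small difference depends on the unit. The share passed 50% in 10 of the 22 genes (45.5%), against 42.2% of the protein-coding genes. By expected counts it passed 50% in 4 of the 22 (18.2%), against 28.0%. By TPM, Pfkp and Gpi1 stood highest, at 91.0% ± 2.09 and 86.7% ± 4.63, followed by Bnip3, Pfkfb4, Gapdh and Tpi1 between 61.7% and 63.9%. Hk1, Pfkfb1 and Pfkfb2 were lowest by TPM, between 17.7% and 20.0%. The order below Pfkp and Gpi1 turned with the unit. By expected counts these stayed highest, at 90.2% and 87.2%, and were followed by Gapdh at 75.6% and Eno2 at 56.4%. Bnip3 was then at 20.3%, Pfkfb4 at 26.4% and Pfkfb1 at 42.3%, and the lowest were Slc16a3 at 6.85% and Pgam1 at 9.23%. The transcript of highest TPM was a retained-intron one in 9 of the 29 genes (31.0%), against 26.2% of detected protein-coding genes. It was a coding one in 18 of the 29 (62.1%), against 65.5% of detected protein-coding genes.

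**Figure D4:**
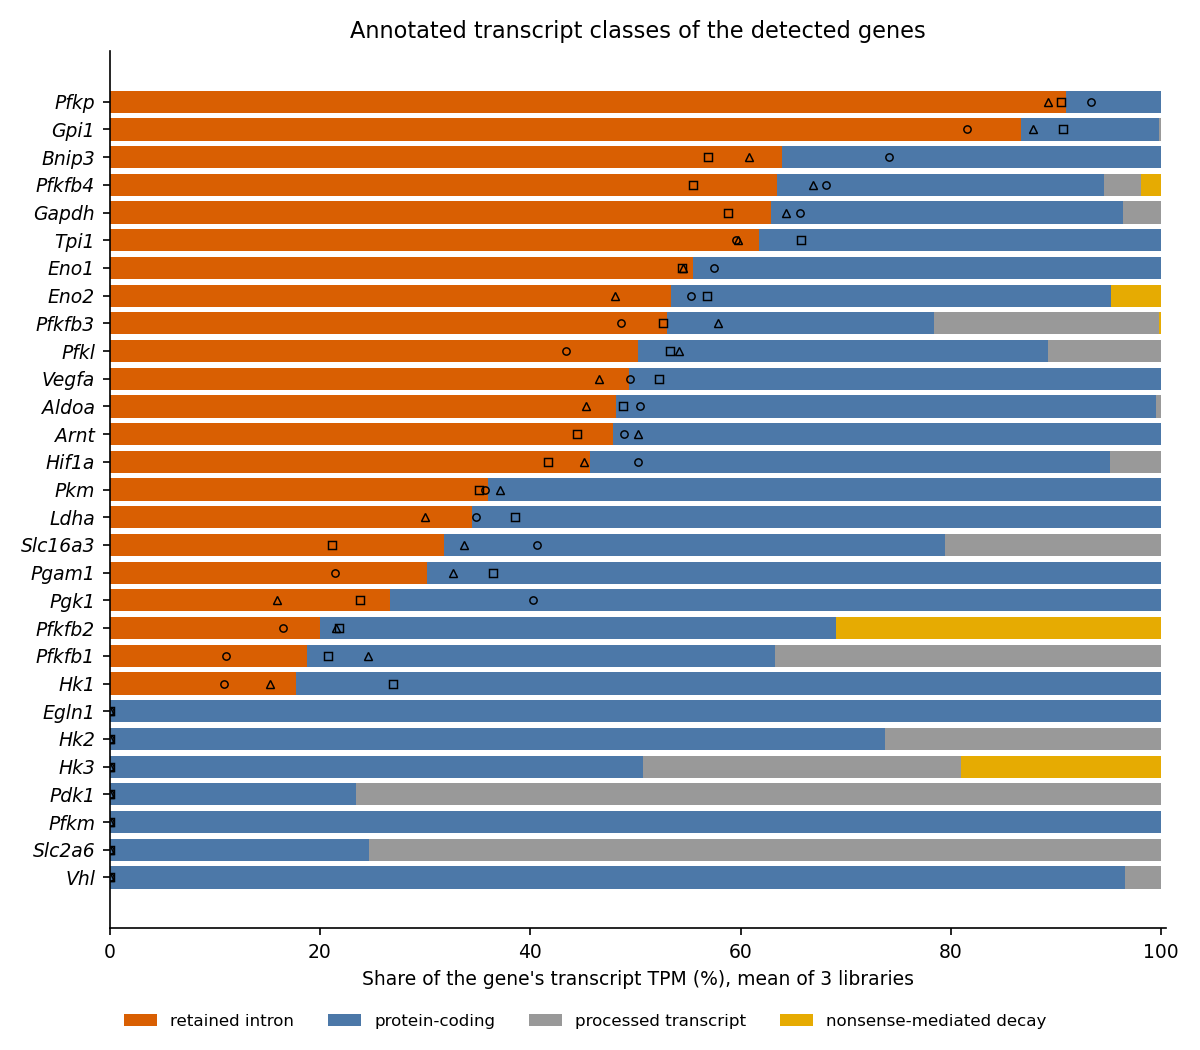
Share of each detected gene's transcript TPM by annotated class (x axis, in percent, mean of 3 libraries), with open markers for the retained-intron share in replicate 1 (circle), 2 (square) and 3 (triangle). Pfkp and Gpi1 are almost filled by retained-intron transcripts, and the 7 genes at the bottom have none annotated.

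The 3 libraries were compared gene by gene with a goodness-of-fit test in edgeR on rounded expected counts. Of 14789 genes tested, 166 (1.12%) varied between libraries beyond the trend of dispersion at an adjusted p under 0.05. Of the 36 genes, 31 passed the filter on low counts, and 0 of these were called, by edgeR or by dispersion outliers of DESeq2. At an unadjusted p under 0.05 the edgeR test gave 1 of the 31, and 899 of all genes. Without replicate 1 it gave 5 of 32, and 824 of 15101 genes. The 1 gene with all libraries was Pfkl, with an adjusted p of 0.821 by edgeR's goodness-of-fit test. It was at 13.8, 22.9 and 16.7 CPM in replicates 1, 2 and 3. The median SD of log2 CPM was 0.27 over the 31 genes, 0.18 over protein-coding genes and 0.19 over all genes tested. Without replicate 1 it was 0.15 over the genes described and 0.12 over all. Replicate 2 had the highest log2 CPM in 17 of the 31 (54.8%), against 31.4% of 11240 protein-coding genes, and replicate 1 the lowest in 16 (51.6%), against 44.3%. Gapdh, Pfkl, Gpi1, Tpi1, Aldoa, Eno2 and Pkm were among those highest in replicate 2. Hk1, Pfkfb3 and Hif1a were instead highest in replicate 1. Arnt and Hk3 varied little, with SDs of 0.03 and 0.05. Replicate 2 was the library of lowest RNA input and highest total count and replicate 1 that of highest input and lowest total, with 1 library at each, and the part of these in the pattern was not tested.

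**Figure D5:**
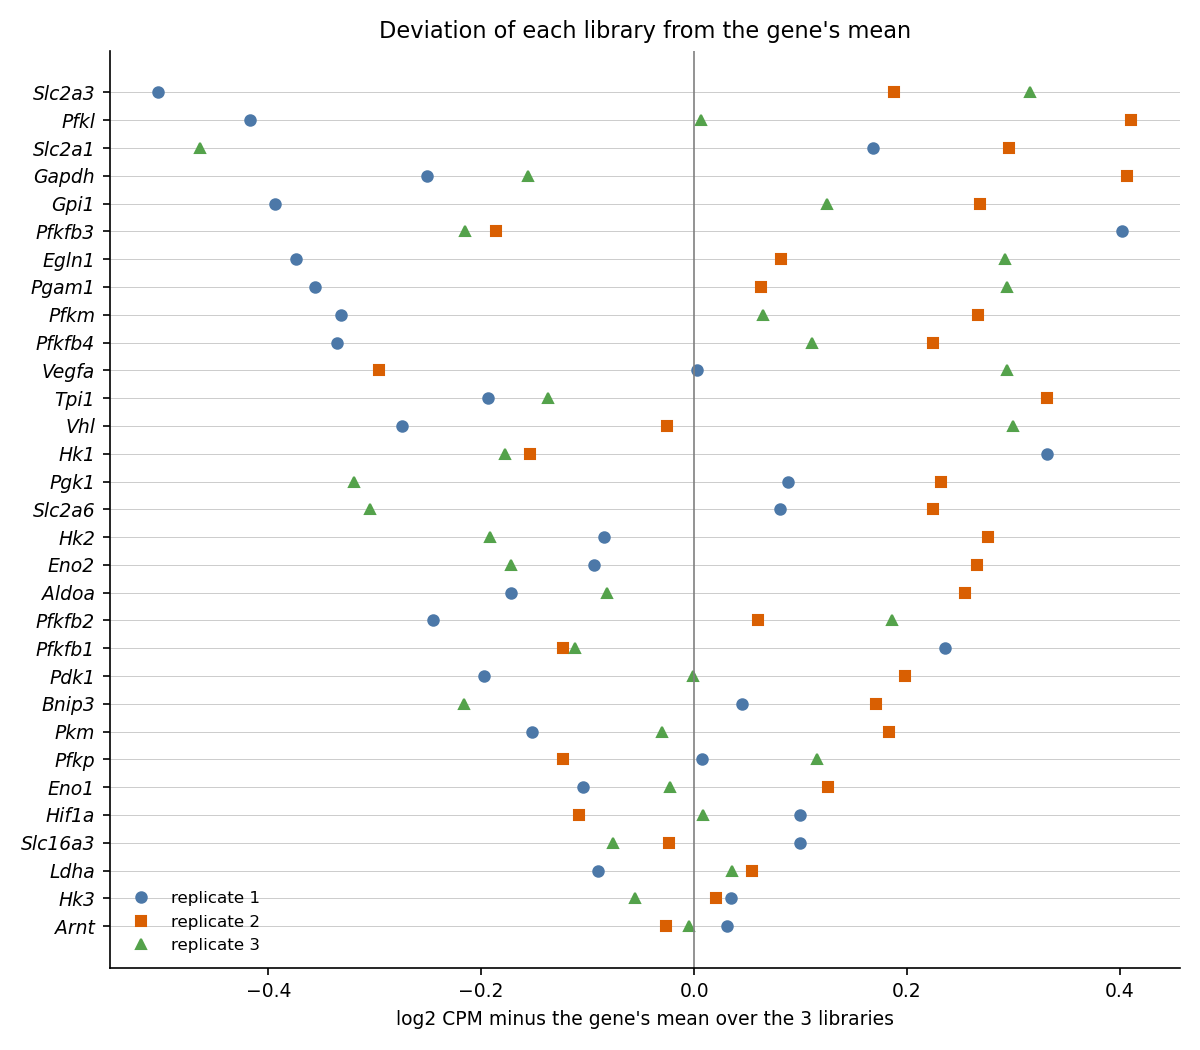
Deviation of log2 CPM in each library from the gene's mean over the 3 libraries (x axis), for the 31 genes in the edgeR fit, ordered by SD. Squares for replicate 2 are rightmost in 17 rows, and Arnt, at the bottom, has an SD of 0.03.

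Other genes of these pathways were taken from lists of 40 glycolysis-linked and 36 HIF and hypoxia genes. Of the first list 27 of 40 were detected and of the second 21 of 36, against 45.6% of protein-coding genes. In both lists 0 genes were called variable by edgeR or DESeq2, which called 1.12% and 0.412% of all genes tested. The highest of the first were Pgd, which makes ribulose 5-phosphate in the pentose phosphate pathway, at 73.1 ± 9.28 TPM, and Txnip, an inhibitor of glucose uptake, at 63.8 ± 30.3. Pdhb, a subunit of pyruvate dehydrogenase, was at 32.7 ± 4.69, and Mpc1, of the mitochondrial pyruvate carrier, at 26.1 ± 1.21. Txnip was at 35.3, 95.7 and 60.5 TPM, highest in replicate 2 and lowest in replicate 1. The highest of the second list were Plin2, a lipid droplet coat protein, at 94.8 ± 6.68 TPM, and the HIF coactivator Ep300 at 89.2 ± 8.86. Kdm3a, a histone demethylase and HIF target, was at 62.2 ± 7.39, and Nampt, an enzyme of NAD synthesis, at 61.8 ± 19.6.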

How the data were processed

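Total RNA of the chromatin fraction had been sequenced in 3 libraries of 1 condition. The authors deposited gene and transcript tables with expected counts and TPM, made from alignments to the mm10 transcriptome with GENCODE M21, per the file headers and accompanying notes, and a further set of transcript tables with estimated counts and TPM made from the reads. The deposited gene tables also give a posterior standard deviation of each count. Aligner, quantifiers, versions and the handling of strand: not given in the sources used here.

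The genes, lists and pairs were chosen with earlier results of these data known. All 36 genes are named, with the 4 highest of each further list and any gene of these lists called variable. Slc2a8, Slc2a9, Slc16a7, Egln2 and Hif1an were named besides, after their values were seen. Read-based values were summed per gene, with 86 identifiers absent there set to 0. Levels were log2(TPM + 0.1). Rounded expected counts were fitted in edgeR 4.0.16 (R 4.3.3; filterByExpr, TMM, intercept only, trended dispersion), with the deviance against chi-square and Benjamini-Hochberg adjustment over all genes. DESeq2 1.42.0 was an alternative. The fit was tested on simulated data. Other work used Python 3.11.15 and pandas 2.3.3. P-values measure only the spread between 3 libraries. The 26345 entries without a mouse gene identifier, at 1.39% (replicate 1), 0.288% (replicate 2) and 0.283% (replicate 3) of the counted total, stayed out of totals and tests.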

Additional observations from a re-analysis of the deposited data

How the results depend on the processing

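No paired analysis was possible because all 3 libraries belong to 1 group. The number of detected genes was 29 to 30 when each replicate was left out, 32 in the read-based tables, and 21 and 31 at thresholds of 5 and 0.5 TPM. In the read-based tables that was 88.9% of the 36, against 56.2% of protein-coding genes. At 5 TPM the shares were 58.3% and 32.0%, and at 0.5 TPM 86.1% and 49.3%. Below 0.1 TPM there was 1 gene by the read-based values, where the gene tables had 2. The share of protein-coding genes below 0.1 TPM was 38.2% in the gene tables and was not taken in the read-based ones. The median level of the 36 genes moved from 4.04 to 4.29 in the read-based tables, 3.06 as a mean over the genes, 5.81 with TPM rescaled over protein-coding genes, and 2.39 over coding transcripts only, an alternative added after seeing the data. It stayed above the protein-coding median by 3.01 to 4.61 under the scalings run. The difference of Slc2a1 from Slc2a3 turned to −0.91 in the read-based tables, and ranged from −0.33 to 0.49 when each replicate was left out, negative without replicate 1. That of Pfkl from Pfkp turned to 0.39 over coding transcripts in the tables that go with the gene tables. The other 14 pairs kept their direction in the read-based tables, and the other 14 over coding transcripts. The median replicate spread ranged from 0.15 to 0.25 when each replicate was left out, lowest without replicate 1. The retained-intron share was 28.1% by expected counts and 45.5% in the read-based tables. No gene described was called variable under any of the 8 alternative fits. The causes of these shifts were not tested. The lowest genes rest on few counts: Ldhb, Epas1, Egln3 and Slc16a1 had at most 12 in a library.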

Other observations

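The deposited quantifications put many of these genes at unlike levels. Between the gene tables and the read-based tables, the mean TPM of 23 of the 36 moved by more than 1 SD, and 15 were more than 1.5 times higher by reads and 1 more than 1.5 times lower. The same counts were not made over protein-coding genes, so they do not set the 36 genes apart. The ratio of read-based to gene-table TPM had a median of 1.40 over the 29 detected genes and 1.30 over detected protein-coding genes. Epas1 had a ratio of 90.0, from 0.0467 ± 0.0252 to 4.20 ± 0.57 TPM, with all of it in protein-coding transcripts under both. Vhl had a ratio of 5.498, and its coding transcripts held 96.6% of its TPM in the transcript tables of the first kind and 14.7% in the read-based ones. Slc2a3 had a ratio of 3.86, Pfkm of 2.16, Slc16a3 of 2.10, Slc2a1 of 1.89, Pdk1 of 1.89, Ldha of 1.84 and Hk3 of 1.71, from 340.0 to 580.4 TPM. The others above 1.5 were Eno1, Pfkfb1, Pfkfb2, Pfkfb3, Pfkfb4 and Pgk1. Gapdh went the other way, with a ratio of 0.632, and its retained-intron share was 62.9% and 83.1%.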
